A study of Mus musculus with 27 samples.

Results

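The step from day 6 to day 8 of osteoblast differentiation was described from 6 of the 27 mouse expression profiles, the 3 labelled day 6 and the 3 labelled day 8. Both days hold cells of the same kind, from the calvariae, or skull caps, of neonatal C57BL/6J-Col3.6 CFP mice aged 5 to 9 days. In this strain a fragment of the type I collagen promoter drives cyan fluorescent protein. Cells released by trypsin and collagenase were grown for 4 days, sorted for the fluorescent protein and returned to culture. From then on all of them received ascorbic acid, beta-glycerol phosphate, serum and antibiotics, and the labels give the groups no difference other than the day. The reporter is active in cells of the osteoblast lineage and in some other cells that make type I collagen, and the sort preceded the time course. The number of mice pooled is not given in the sources used here.

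The 3 profiles of a day carried 1 barcode and came from different sequencing lanes, so each day was taken as 1 library. In genes with whole-number counts the spread between profiles of a day was no larger than sampling noise. Chi-square tests on counts gave 1.01 per degree of freedom for day 6 (9565 genes, p = 0.166) and 1.011 for day 8 (9463 genes, p = 0.153). With fractional counts included, the profiles of a day did differ beyond sampling noise. The same chi-square tests on counts then gave 1.217 for day 6 (13147 genes, p = 6.84e-120) and 1.236 for day 8 (12715 genes, p = 3.16e-136). The study describes the profiles of a time point as triplicate samples, while the files of a day share a barcode. On the barcode and the whole-number counts, the profiles of a day were counted as 1 sample, and no test of day 8 against day 6 was possible. A fold difference below is given with an exact 95% interval that covers counting error only, and differences between cultures cannot be told apart from differences between days. Day 6 held 43146793 counts and day 8 held 29775703. A level is a normalised CPM, the count scaled to library size with upper-quartile factors, and is compared within a gene. Levels of different genes are compared in TPM, the transcript abundance of RSEM, which takes account of gene length. The floor of 3 counts corresponds to 0.065 normalised CPM on day 6 and 0.0956 on day 8.

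As background, preosteoblasts in culture first divide, then lay down and organise a matrix rich in type I collagen, and mineralise it late. Ascorbic acid is needed to hydroxylate collagen and beta-glycerol phosphate supplies phosphate for mineral. Runx2 and Sp7 are the transcription factors that define the lineage, Alpl and Ibsp are needed for or accompany mineralisation, and Bglap and Dmp1 mark mature osteoblasts and osteocytes.

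Of 37991 features in the files, 13994 had 30 or more counts over the 6 profiles and were compared. On day 8, 562 of these (4.02%) were 2-fold or more higher and 310 (2.22%) were 2-fold or more lower, 6.23% in all. Counts of list members past 2-fold, given below, are to be read beside these shares. A gene with few counts on 1 day passed the filter only if it had more on the other. Its ratio could then go only 1 way, as for Ibsp, Dmp1, Kera, Heyl, Rspo1 and Pi16 below. Counts of genes past 2-fold include such genes. The median log2 ratio over all genes compared was 0.005, with quartiles at −0.2 and 0.24. The ratio was above 0 for 7086 genes (50.6%) and below 0 for 6908. At 4-fold, 83 genes were higher and 45 lower. Among 8866 protein-coding genes with a mean of at least 5 TPM, 111 were 2-fold higher and 44 were 2-fold lower. The genes nearest the threshold had log2 ratios of 1.001 and 0.9998 on the higher side and of −1.001 and −0.9968 on the lower side. In the other steps between neighbouring days, 5.04% to 9.23% of genes were past 2-fold, with the highest share from day 8 to day 10.

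**Figure D1:**
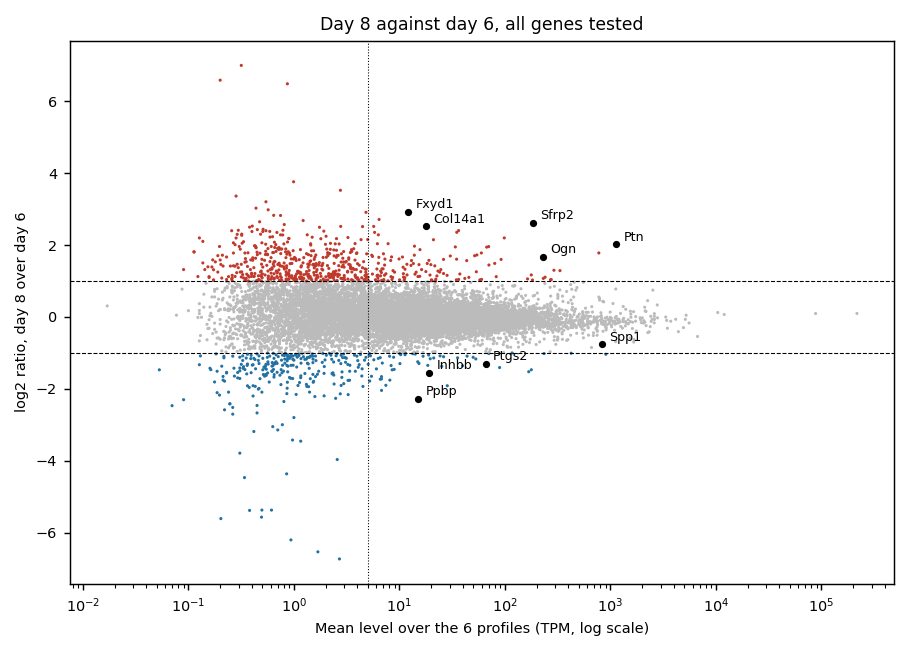
The log2 ratio of day 8 over day 6 (vertical axis) is plotted against the mean level over the 6 profiles in TPM (horizontal axis, log scale) for each gene compared. Red points are the 562 genes 2-fold or more higher, blue points the 310 genes 2-fold or more lower, dashed lines mark 2-fold, the dotted line marks 5 TPM, and the ratios beyond 4 log2 units all lie at mean levels under 5 TPM.

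Among the 15 leading genes that were higher on day 8 were secreted factors, matrix proteins, membrane proteins and enzymes. Sfrp2, a secreted modulator of Wnt signalling, had 54.2, 55.5 and 51.8 normalised CPM in the day 6 profiles and 326, 340 and 328 in those of day 8. All 3 values of day 8 lay above all 3 of day 6, a 6.15-fold difference (5.89 to 6.43). Ptn encodes pleiotrophin, a heparin-binding growth factor found in bone matrix, and was the most abundant of the leading genes, at 444 TPM on day 6 and 1838 TPM on day 8. It had 171, 169 and 176 normalised CPM on day 6 and 691, 699 and 697 on day 8, 4.05-fold higher (3.94 to 4.15). Egfl6, a secreted protein with epidermal growth factor repeats, had 50.4, 53.6 and 53.7 on day 6 and 245, 243 and 237 on day 8. The difference was 4.59-fold (4.39 to 4.81), and the profiles of the days did not overlap.

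Mme, the cell surface peptidase neprilysin, had 24.8, 25.1 and 25.6 normalised CPM on day 6 and 132, 125 and 129 on day 8, 5.12-fold higher (4.8 to 5.47). Penk, the precursor of the enkephalin peptides, had 9.36, 7.59 and 7.71 on day 6 and 42.8, 44.2 and 43.4 on day 8, 5.29-fold higher (4.72 to 5.95). Chrdl1, an antagonist of bone morphogenetic proteins, was 4.43-fold higher (4.07 to 4.84), and Itih5, a hyaluronan-binding matrix protein, was 5.73-fold higher (5.11 to 6.45). Fxyd1, a regulator of the sodium pump, had the largest ratio among the named genes, 7.55-fold (4.84 to 12.7), from low values of 0.664, 0.322 and 0.45 on day 6 and 4, 4.45 and 2.56 on day 8. Pgm5 (4.88-fold), Scara5 (4.45-fold), Adh1 (4.11-fold) and Crispld1 (4.11-fold) complete the leading genes together with Matn4, Lect1 and Col14a1, which are described with their groups.

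**Figure D2:**
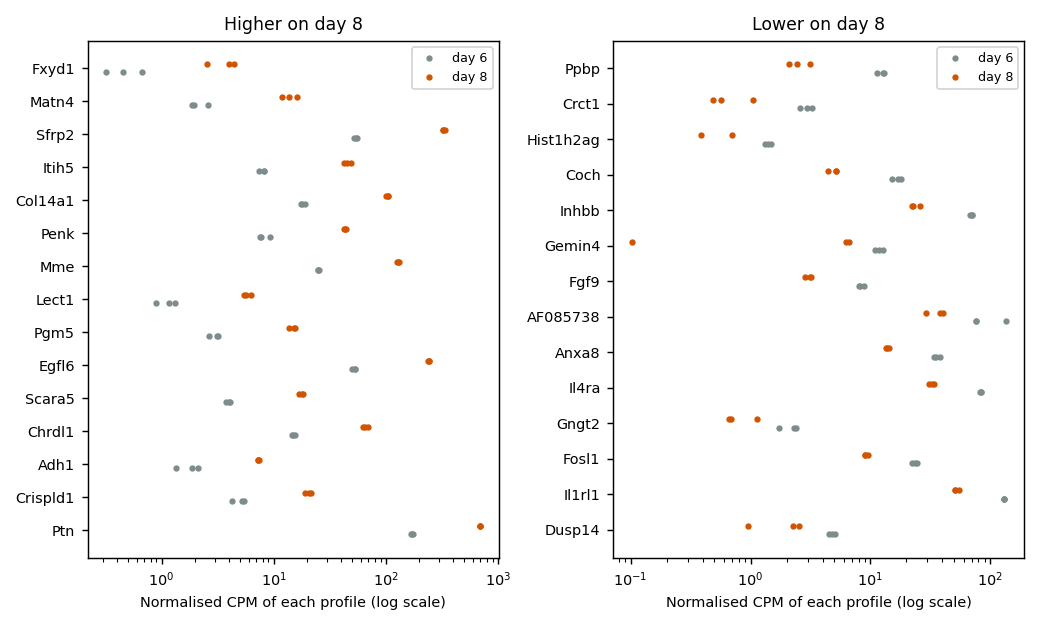
Each point is 1 profile, 3 for day 6 (grey) and 3 for day 8 (orange), at its normalised CPM (horizontal axis, log scale) for the 15 genes with the largest ratio and 14 of the 15 with the smallest among protein-coding genes with a mean of at least 5 TPM. The points of the days do not overlap for any gene drawn, the 0 of Hist1h2ag in 1 profile of day 8 cannot be drawn on this axis, and Gemin4 has 1 profile of day 8 at 0.102 with the other two at 6.6 and 6.22.

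Small leucine-rich proteoglycans, which bind collagen fibrils and set their spacing and diameter, were higher as a family. All 11 members compared had a ratio above 0, beside 50.6% of all genes. Of the 11, 5 were 2-fold or more higher and none was 2-fold lower, with a median log2 ratio of 0.97 beside 0.005 over all genes. Ogn, osteoglycin, had 155, 149 and 150 normalised CPM on day 6 and 473, 487 and 490 on day 8, 3.19-fold higher (3.1 to 3.29). Epyc was 2.23-fold higher (2.04 to 2.44), Ecm2 2.22-fold (1.94 to 2.54) and Aspn, asporin, 2.1-fold (2.05 to 2.16). Decorin (Dcn), which had 278, 276 and 276 on day 6 and 541, 543 and 540 on day 8, stood just under 2-fold at 1.96-fold (1.91 to 2.01). Lum was 1.71-fold higher, Fmod 1.68-fold and Bgn, already at 2696, 2687 and 2682 on day 6, was 1.07-fold higher.

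Several of these genes are neighbours in the genome. In the NCBIM37 build, Ecm2 (chr13:49600179-49628158), Aspn (chr13:49639812-49662926), Omd (chr13:49678135-49687978) and Ogn (chr13:49703440-49719869) lie side by side on the plus strand. All 4 were 2-fold or more higher on day 8. On chromosome 10, Dcn (chr10:96942245-96980777), Lum (chr10:97028135-97035337), Kera (chr10:97069817-97076322) and Epyc (chr10:97106702-97145088) form another row, in which Kera and Epyc were past 2-fold. Kera rested on 8 counts on day 6 and 30 on day 8, so it passed the filter only through day 8. Levels of neighbouring genes are not independent observations.

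The promoter of Ogn is shown because Ogn had the largest difference among the abundant members and its window holds the letters recognised by Runx2. The window runs from 250 bases before to 50 bases after the gene start in RefSeq (GRCm38.p6, chr13:49607765-49608064, plus strand), and capitals mark ACCACA, 65 bases before the start.
Ogn: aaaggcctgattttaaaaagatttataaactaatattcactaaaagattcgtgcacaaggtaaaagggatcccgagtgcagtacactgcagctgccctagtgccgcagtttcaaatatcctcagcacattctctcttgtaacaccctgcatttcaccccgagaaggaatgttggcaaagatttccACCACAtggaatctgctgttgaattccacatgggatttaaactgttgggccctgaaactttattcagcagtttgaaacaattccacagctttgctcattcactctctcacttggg
Searched on both strands, ACCACA stood in 10.0% of 329 promoters of genes 2-fold higher on day 8, in 15.4% of 182 promoters of genes 2-fold lower and in 11.9% of 9429 promoters of genes compared. The share among the higher genes was thus no larger than the background, and a match is a description of letters.

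Collagens differed by member. Of 33 collagens and collagen-processing genes, 4 were 2-fold higher and none 2-fold lower, with a median of 0.19. Col14a1, a fibril-associated collagen, had 17.4, 19.1 and 17.8 normalised CPM on day 6 and 106, 105 and 100 on day 8, 5.72-fold higher (5.3 to 6.18). Col15a1, a basement membrane zone collagen, was 4.12-fold higher (3.23 to 5.32) and the fibrillar chains Col5a3 and Col11a1 were 2.14-fold (1.85 to 2.49) and 2.05-fold (2.01 to 2.09) higher, with Col11a1 at a log2 ratio of 0.96 in TPM. Col1a1, the main chain of bone collagen, was 1.26-fold higher, with 7181, 7216 and 7240 on day 6 and 9061, 9117 and 9102 on day 8. The values of the days did not overlap, and the difference was small beside that of Col14a1.

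Elastic fibre genes included 3 of 17 (17.6%) that were 2-fold higher, beside 4.02% of all genes, and none 2-fold lower (median 0.13). These were Eln, elastin itself (3-fold, 2.41 to 3.75), Fbn2, a microfibril component (2.29-fold, 2.22 to 2.36), and Mfap2, which binds microfibrils (2.18-fold, 2.01 to 2.35). Of 16 matrix metalloproteinases and inhibitors (median 0.17, −0.07 in TPM), Timp1 was the 1 member past 2-fold (6.25%, beside 6.23% of all genes). It inhibits metalloproteinases and was 2.05-fold lower on day 8 (2.0 to 2.11), with 425, 436 and 428 on day 6 and 203, 213 and 212 on day 8.

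Cartilage genes had a median log2 ratio of 0.5 over 14 members, with 5 2-fold higher and 1 2-fold lower. Matn4, a matrilin that links matrix filaments, had 2.59, 1.93 and 1.86 normalised CPM on day 6 and 16.3, 11.9 and 13.8 on day 8, 6.56-fold higher (5.28 to 8.29). Lect1, chondromodulin, was 5.11-fold higher (3.76 to 7.15) and Comp, a matrix protein of cartilage and tendon, 2.21-fold (1.88 to 2.61). The collagen chains Col9a1 and Col9a2 were past 2-fold on 11 and 17 counts on day 6, and Matn3 was lower on 77 counts on day 6 and 21 on day 8.

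Wnt ligands, antagonists and targets held 8 members of 21 that were 2-fold higher and 2 that were 2-fold lower, with a median of 0.22. Besides Sfrp2, the secreted antagonist Sfrp1 had 276, 278 and 273 on day 6 and 609, 627 and 624 on day 8, 2.25-fold higher (2.2 to 2.3). R-spondins raise the response to Wnt through Lgr receptors. Lgr5 had 13.6, 13 and 11.6 on day 6 and 49.2, 49.6 and 50.5 on day 8, 3.92-fold higher (3.56 to 4.32). Rspo3 was 3.3-fold higher (3.11 to 3.51), Rspo2 2.24-fold (1.95 to 2.58) and Rspo1 4.53-fold (2.38 to 9.79) on 12 and 38 counts. Nkd1, an intracellular inhibitor induced by Wnt signalling, was 4.66-fold higher (3.49 to 6.37). Axin2, another target, had 5.98, 6.3 and 4.18 on day 6 and 6.15, 4.45 and 5.58 on day 8, so its profiles overlapped and the interval of the ratio of 0.984 (0.804 to 1.2) included no difference.

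Wnt16 was 2.76-fold higher (1.83 to 4.29) on a low level of 0.399, 1.09 and 0.835 on day 6 and 2.44, 2.27 and 1.8 on day 8. The lower members were Tcf7 and Wif1, at 81 and 24 counts and at 26 and 8 counts on days 6 and 8. The Wif1 interval, 0.971 to 5.65 for day 6 over day 8, included no difference.

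The IGF system held Igfbp3 and Igfbp5, carriers of insulin-like growth factors, past 2-fold among 12 members, both higher, with a list median of 0.29. Igfbp5 had 155, 146 and 148 normalised CPM on day 6 and 453, 450 and 458 on day 8, 3.03-fold higher (2.95 to 3.12). Igfbp3 had 18.4, 19 and 17.5 on day 6 and 67.2, 72.7 and 71.8 on day 8, 3.86-fold higher (3.57 to 4.19). The ligand Igf1 was 1.87-fold higher (1.83 to 1.91). For all 3 genes the profiles of day 8 lay above those of day 6.

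Among 23 genes of BMP and TGF-beta signaling, Bmp3 was 2.41-fold higher (1.69 to 3.5), and the list median was 0.15. Bmp3 was the 1 member 2-fold higher, beside 4.02% of all genes compared. Of 13 Notch and Hedgehog genes, 2 were 2-fold higher and 1 lower (median 0.17), and the Notch target Heyl was past 2-fold on 9 and 31 counts. Of 16 FGF genes, 1 was higher and 1 lower (median 0.05). The lower one, the ligand Fgf9, had 8.23, 7.98 and 8.87 on day 6 and 3.12, 3.22 and 2.84 on day 8, 2.72-fold lower (2.18 to 3.45).

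Genes of mineralisation differed in both directions, and the higher ones had low levels on both days. Of 18 members of the osteoblast matrix and mineralisation list, 5 were 2-fold higher and 1 was 2-fold lower, with a median of 0.25 (−0.03 among members with 300 or more counts). Alpl, tissue-nonspecific alkaline phosphatase, had 0.731, 0.836 and 0.45 normalised CPM on day 6 and 1.66, 2.74 and 1.99 on day 8, 3.15-fold higher (2.05 to 5.04). Ibsp, bone sialoprotein, had 0.133, 0.257 and 0.193 on day 6 and 0.781, 0.662 and 0.852 on day 8 (3.79-fold, 1.76 to 9.59). Dmp1, a phosphoprotein of osteocytes, had 0.0664, 0.257 and 0.257 on day 6 and 1.07, 1.32 and 1.42 on day 8 (6.27-fold, 3.12 to 15.3). Its log2 ratio was 2.65 in counts and 2.01 in TPM. The days did not overlap for these genes, but the counts behind the day 6 values were few and the intervals wide. Phex, a peptidase that restrains the phosphate hormone FGF23, was 2.84-fold higher (2.16 to 3.79), and Omd, osteomodulin, 3.16-fold (2.52 to 4.0).

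In the other direction, Slc20a1, a phosphate transporter, had 101, 105 and 104 on day 6 and 45.5, 48.3 and 48.8 on day 8, 2.18-fold lower (2.05 to 2.31). Spp1, osteopontin, had 650, 644 and 633 on day 6 and 380, 375 and 386 on day 8, 1.69-fold lower (1.65 to 1.73), which is short of 2-fold. Bglap, osteocalcin, had 2.38 estimated counts on day 6 and 1 on day 8 and was not compared, like Bglap2, Mepe, Sost, Ifitm5 and Smpd3.

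No osteoblast transcription factor was past 2-fold among 13 compared (median −0.08). Runx2 had 149, 147 and 148 on day 6 and 178, 169 and 179 on day 8, 1.19-fold higher (1.14 to 1.23). Sp7 had 4.32, 4.12 and 5.08 on day 6 and 4, 3.79 and 3.31 on day 8, and the ratio of 0.822 (0.648 to 1.03) included no difference. Msx2, a homeobox factor of the skull, was 1.68-fold lower (1.6 to 1.76) and Zfp521 was 1.53-fold higher (1.46 to 1.6). The lineage markers therefore give the label osteoblast as Runx2 and Col1a1 present, with Sp7, Alpl and Ibsp low and Bglap at or under 3 counts.

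Genes that were lower on day 8 included secreted factors and receptors. Inhbb, the activin B subunit, had 68.4, 70.2 and 70.9 normalised CPM on day 6 and 22.9, 25.8 and 22.3 on day 8, 2.94-fold lower (2.72 to 3.19). Coch, cochlin, was 3.38-fold lower (2.85 to 4.06), Anxa8, an annexin, 2.59-fold lower (2.33 to 2.89), and Il4ra, the interleukin 4 receptor, 2.56-fold lower (2.39 to 2.75).

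Some of the leading lower genes are less certain. Hist1h2ag (3.74-fold lower), Gemin4 (2.75-fold lower) and AF085738 (2.65-fold lower) had counts that are not whole numbers, since reads they share with other features were divided between them. Gemin4 had 11.8, 10.9 and 12.7 normalised CPM on day 6 and 6.6, 0.102 and 6.22 on day 8. Its log2 ratio was −1.46 in counts and −2.87 in TPM, and it was −0.88 in counts without replicate 2 of day 8. Dusp14, a dual-specificity phosphatase, stood at −1.32 with all profiles and at −0.98 without the same one. Crct1 (4.12-fold lower, 2.67 to 6.93) and Gngt2 (2.55-fold lower, 1.67 to 4.16) had at most 3.28 normalised CPM in any profile.

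Ppbp, the platelet basic protein chemokine Cxcl7, had the largest difference in this direction among the named genes. It had 11.3, 12.7 and 13 on day 6 and 3.12, 2.46 and 2.08 on day 8, 4.81-fold lower (3.82 to 6.19). Its promoter window (RefSeq, GRCm38.p6, chr5:90768268-90768567, plus strand) is shown because it matches TGANTCA, the letters searched for AP-1 factors. N is any base, so the search was broad. Fosl1, an AP-1 factor, was lower in the same step, and an effect of it on Ppbp was not tested. Capitals mark the match, which has A at the N, 204 bases before the start.
Ppbp: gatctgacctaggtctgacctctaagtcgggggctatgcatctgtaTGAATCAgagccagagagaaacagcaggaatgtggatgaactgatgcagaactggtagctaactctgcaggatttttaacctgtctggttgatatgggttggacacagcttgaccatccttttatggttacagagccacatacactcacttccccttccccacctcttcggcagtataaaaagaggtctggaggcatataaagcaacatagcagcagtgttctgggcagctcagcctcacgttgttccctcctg
On either strand, TGANTCA stood in 12.6% of 182 promoters of genes 2-fold lower on day 8, in 5.47% of 329 promoters of genes 2-fold higher, in 4.96% of 9429 promoters of genes compared and in 7.93% of all 27025. Among the lower genes with a mean of at least 5 TPM it stood in 2 of 31 promoters (6.45%), so most of the matches were in genes outside that group. The RUNX and AP-1 sites are 2 of 7 motifs counted, and the AP-1 site is shown with Fosl1 in view. Of the other 5, CHR (TTTGAA or TTCGAA) stood in 15.5% of higher, 9.89% of lower and 13.6% of compared promoters. The CCAAT box (CCAAT) stood in 37.7%, 30.8% and 39.2%, the E-box (CACGTG) in 7.29%, 9.89% and 10.2%, the E2F site (TTTGGCGC or TTTCGCGC) in 0.608%, 2.2% and 1.62%, and the interferon response element (ISRE) in 3.04%, 1.1% and 3.0% of the same sets.

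Of 20 immediate early genes, 1 was 2-fold higher and 2 were 2-fold lower (median 0.12). Fosl1, an AP-1 subunit, had 24.3, 23.6 and 22.5 on day 6 and 9.04, 9.01 and 9.6 on day 8, 2.54-fold lower (2.24 to 2.91). Ier3 was 2.21-fold lower (1.89 to 2.58) and Egr2, a zinc finger factor, 3.04-fold higher (2.65 to 3.49) in counts. In TPM its log2 ratio was 0.86 against 1.60 in counts, short of 2-fold.

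Inflammatory mediators split by member, with 2 of 25 2-fold higher, 5 2-fold lower and a median of 0.01. Ptgs2, the inducible prostaglandin synthase COX-2, had 220, 218 and 229 normalised CPM on day 6 and 95, 84.2 and 91.6 on day 8, 2.46-fold lower (2.36 to 2.57). Il1rl1, the receptor of interleukin 33, had 132, 132 and 131 on day 6 and 55.4, 50.7 and 50.9 on day 8, 2.51-fold lower (2.38 to 2.66). The chemokines Cxcl5 (2.37-fold, 2.05 to 2.76), Ccl7 (2.0-fold, 1.85 to 2.17) and Cxcl1 (40 and 7 counts) were lower as well. The complement components C3 and C4b were higher, C3 by 5.74-fold (4.58 to 7.3) in counts, from 2.72, 1.93 and 1.48 to 11.6, 11.3 and 12.3, but by a log2 ratio of 1.16 in TPM against 2.52 in counts.

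Interferon-stimulated genes were mostly higher on day 8. Of 32 members, 31 had a ratio above 0, beside 50.6% of all genes compared. In the list 3 were 2-fold higher (9.38%, beside 4.02% of all genes) and none 2-fold lower, with a median log2 ratio of 0.54. Ifi27l2a had 2.72, 3.73 and 2.93 on day 6 and 12.1, 12.2 and 11.9 on day 8, 3.85-fold higher (3.17 to 4.69). Oas1a, a sensor of double-stranded RNA, was 2.31-fold higher (1.98 to 2.7) and the GTPase Iigp1 2.06-fold (1.94 to 2.19, a log2 ratio of 0.98 in TPM). The median level of the list was 47.0 normalised CPM on day 6 and 72.6 on day 8, the highest of the 9 days. It was 1.56 on day 2, 28.6 on day 10 and 16.5 for the last day. The whole macrophage marker list, given below, was at 49.4 and 55.2 summed in the same libraries, and its part in this difference was not tested.

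No cell cycle gene of the mitosis and DNA replication lists was past 2-fold. Of 32 mitosis genes 18 were below 0 (median −0.08), and of 28 DNA replication genes 25 were below 0 (median −0.18), a small difference mostly of 1 sign. Over all genes compared, 6908 of 13994 were below 0. Mki67, a marker of dividing cells, had 357, 356 and 354 on day 6 and 361, 350 and 349 on day 8, a ratio of 0.992 (0.968 to 1.02). The summed level of the mitosis list over days 6, 8 and 10 was 2198, 2162 and 1126 normalised CPM. Cdkn1c, the inhibitor p57, had 26.2, 27.1 and 27.1 on day 6 and 91.7, 89.2 and 95.3 on day 8, 3.44-fold higher (3.21 to 3.68). It was the 1 member past 2-fold of 16 CDK inhibitors and p53 targets (6.25%, beside 6.23% of all genes, median −0.26). Cdkn1a, the inhibitor p21, had 820, 814 and 826 on day 6 and 532, 530 and 528 on day 8, 1.55-fold lower (1.52 to 1.57).

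**Figure D3:**
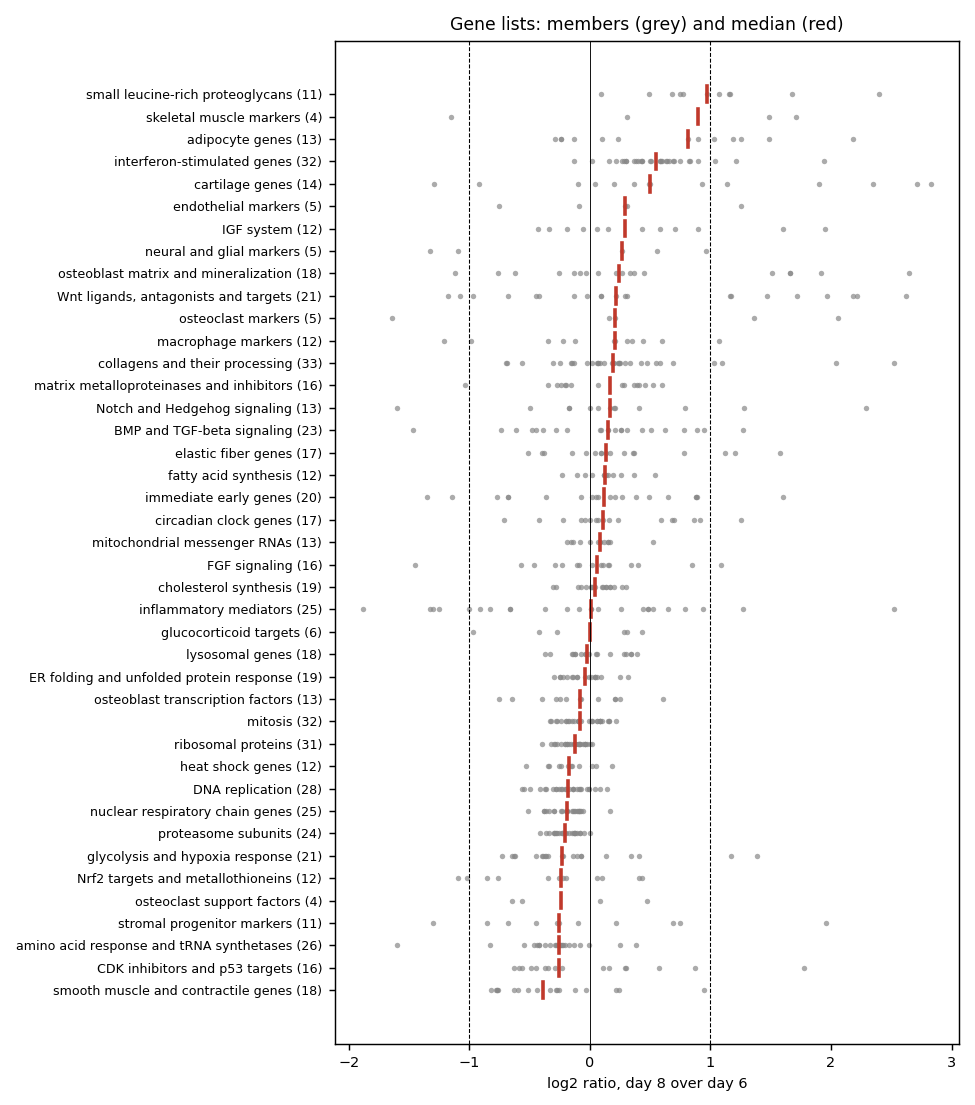
Each grey point is a gene at its log2 ratio of day 8 over day 6 (horizontal axis), grouped by list with the number compared in brackets, and the red bar is the list median. Small leucine-rich proteoglycans have the highest median, 0.97, and smooth muscle and contractile genes the lowest, −0.38, while the dashed lines mark 2-fold.

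Several gene groups had small differences, mostly of 1 sign. Contractile genes had a median of −0.38, with 15 of 18 below 0 and none past 2-fold. The largest difference in this list was that of Mylk, which was higher at a log2 ratio of 0.95. Des (−0.82), Myh11 (−0.78) and Ankrd1 (−0.77) were lower. Acta2, smooth muscle actin, was 1.35-fold lower (1.34 to 1.37) and Tagln, transgelin, 1.7-fold lower (1.65 to 1.75). Proteasome subunits were below 0 in 24 of 24 (median −0.2), nuclear respiratory chain genes in 24 of 25 (median −0.19), ribosomal proteins in 29 of 31 (median −0.12) and amino acid response and tRNA synthetase genes in 24 of 26 (median −0.26). Of the last list, 1 gene, the cystine transporter Slc7a11, was 2-fold lower. Over all genes compared, 6908 of 13994 were below 0 and the lower quartile was −0.2. Other scalings of the libraries shifted list medians by at most 0.03.

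Nrf2 targets and metallothioneins, which respond to oxidative stress, had a median of −0.24, with 2 of 12 2-fold lower. Nqo1 was 2.13-fold lower (1.95 to 2.32). Hmox1, heme oxygenase 1, had 256 in each day 6 profile and 126, 124 and 129 on day 8, 2.03-fold lower (1.96 to 2.1). Glycolysis and hypoxia genes had a median of −0.23, with 2 of 21 2-fold higher, among them Ndrg1 (2.25-fold, 2.0 to 2.53, but a log2 ratio of 0.71 in TPM), and 16 below 0. Heat shock genes (median −0.17 over 12), genes of the unfolded protein response (−0.04 over 19), cholesterol synthesis (0.04 over 19), fatty acid synthesis (0.12 over 12), lysosomal genes (−0.02 over 18), mitochondrial messenger RNAs (0.08 over 13) and glucocorticoid targets (0.01 over 6) had no member past 2-fold. Of 17 clock genes, Hlf was the 1 member past 2-fold (5.88%, beside 6.23% of all genes, median 0.11). Hlf was higher, at a log2 ratio of 1.25 in counts and 4.12 in TPM.

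Markers of other cell types that a calvarial culture can hold were examined beside these results. The macrophage list had 12 of 17 members with enough counts, 1 2-fold higher and 1 2-fold lower, with a median of 0.20 and a summed level of 49.4 normalised CPM on day 6 and 55.2 on day 8. In TPM the summed level was 72.3 to 78.9 in the day 6 profiles and 81.2 to 90.3 in those of day 8. Aif1 was at 0 on day 8, and Ptprc, with 12 and 8 counts, Tyrobp, C1qa and Cd163 also had too few to compare. Lyz2 had 36.8, 35 and 38.1 normalised CPM on day 6 and 40.1, 44 and 42.3 on day 8, so it made up most of the summed level on both days. Csf1r had 1.4, 1.66 and 1.41 and then 1.69, 2.57 and 1.8. Fcer1g was the 2-fold lower member, on 42 and 12 counts, and C1qb stood just short of it at a log2 ratio of −0.99. Of the 12 members compared, 7 were above 0 and 5 below. In bulk RNA, fewer cells of a type and less RNA per cell cannot be told apart, and the part of these cells in the other differences was not tested.

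Adipocyte genes had a median of 0.81 over 13 members, with 5 2-fold higher and none lower. Its median was −0.24 among members with 300 or more counts, so it rests on genes of low count. Pparg and Cebpa, the factors that drive fat cell differentiation, were 2.38-fold (1.8 to 3.16) and 2.81-fold (2.15 to 3.72) higher from levels under 3 normalised CPM on day 6. Lpl, lipoprotein lipase, was 2.28-fold higher (2.09 to 2.51), and Car3 and Cd36 were past 2-fold on 11 and 20 counts on day 6. The late adipocyte markers Adipoq and Fabp4 were near the floor, Adipoq with 0, 0.0643 and 0.0643 on day 6 and 0.195, 0.284 and 0.284 on day 8. Of 5 osteoclast markers 2 were higher, Acp5 by 2.57-fold (1.87 to 3.59), and 1 was lower (median 0.21). Osteoclast support factors had a median of −0.24 over 4 and none past 2-fold.

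Stromal progenitor markers had a median of −0.26 over 11, with Lepr, the leptin receptor, 2.45-fold lower (2.27 to 2.66) and Pi16 higher on 8 and 22 counts. Of 5 endothelial markers Tek was 2.38-fold higher, but its log2 ratio in TPM was 0.84 (list median 0.29, −0.14 in TPM). Skeletal muscle markers had 2 of 4 higher and 1 lower (median 0.9), all at levels under 7 normalised CPM. With 300 or more counts the median was −1.15, which is the ratio of Acta1. The summed level of the list was 7.69 normalised CPM on day 6 and 5.863 on day 8. In TPM the sums of the day 8 profiles were 19.4, 7.18 and 6.72, so replicate 1 stood apart. Neural and glial markers had 2 of 5 lower, Mbp and Tubb3 (median 0.27, but −0.40 without replicate 1 of day 6). None of 10 mast, lymphoid and erythroid markers had enough counts to compare. Rin3, a gene of interest in the study, had 14.5, 14.2 and 16.8 on day 6 and 15.3, 15.3 and 15.1 on day 8, and its ratio of 1.01 (0.894 to 1.13) included no difference.

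The libraries of the other 7 days did not enter these ratios. Of the 562 genes 2-fold higher on day 8, 435 (77.4%) had higher levels on each of days 10 to 18 than on days 2 and 4, beside 31.6% of all genes compared. The opposite order held for 8 (1.42%), and the others overlapped. Of the 310 genes 2-fold lower, 149 (48.1%) had lower levels on each of days 10 to 18 than on days 2 and 4, beside 34.2% of all genes compared, and 28 (9.03%) had the opposite order. The median difference between later and earlier days was 2.83 log2 units for the higher genes, −1.15 for the lower genes and −0.03 for all genes.

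All 15 leading higher genes had this order. Over days 2, 4, 6, 8 and 10, Sfrp2 had 23.7, 27.3, 53.9, 331 and 2455 normalised CPM, and Ptn had 37.0, 57.5, 172, 696 and 2375. Of the 15 leading lower genes, 11 had the opposite order, and 4 (Hist1h2ag, Gemin4, AF085738 and Il4ra) overlapped. Over the same days Ptgs2, a named lower gene, had 976, 610, 222, 90.2 and 9.77. For Sfrp2, Ptn and Ptgs2 the levels of days 6 and 8 lay between those of days 2 and 4 and those of day 10.

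**Figure D4:**
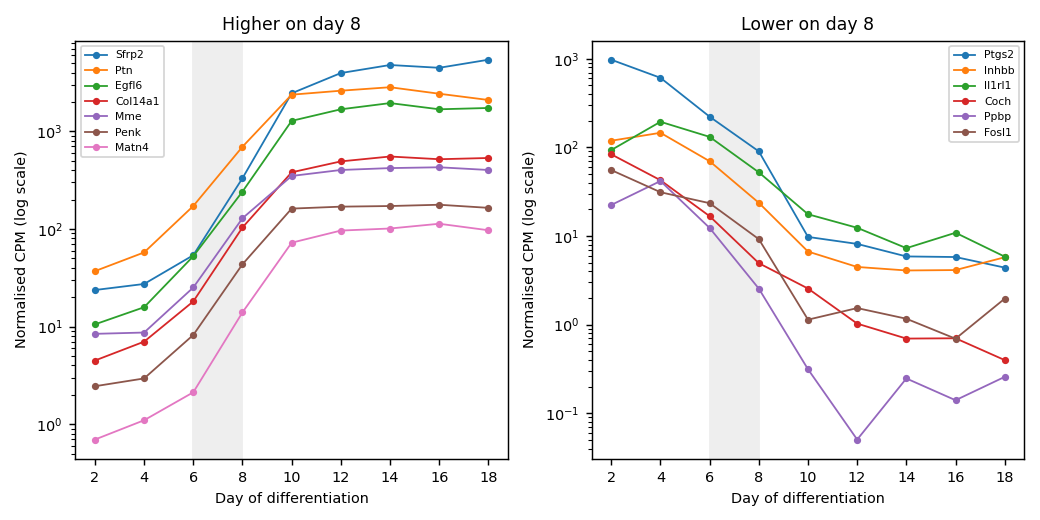
Normalised CPM (vertical axis, log scale) of 7 leading higher genes (left) and 6 leading or named lower genes (right) is plotted on each of the 9 days (horizontal axis), 1 library a day, with the compared step shaded. Sfrp2 goes from 53.9 on day 6 to 331 on day 8 and Ptgs2 from 222 to 90.2.

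The lists differed in their levels on the neighbouring days. The summed level of small leucine-rich proteoglycans over days 6, 8 and 10 was 4426, 6117 and 9841 normalised CPM, and the Wnt list had 1080, 1856 and 5439. The IGF system had 2469, 3584 and 7112. Sums are weighted to the abundant members. The median levels of the genes compared on the same days were 190, 399 and 819 for the proteoglycans. They were 3.77, 5.39 and 7.89 for the Wnt list and 161, 247 and 282 for the IGF system. Contractile genes were highest on day 2, at 15170 summed, with 7206 on day 6 and 5827 on day 8. The macrophage list had 162 on day 10 and 1690 on day 18, so its larger levels came after the step described here.

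**Figure D5:**
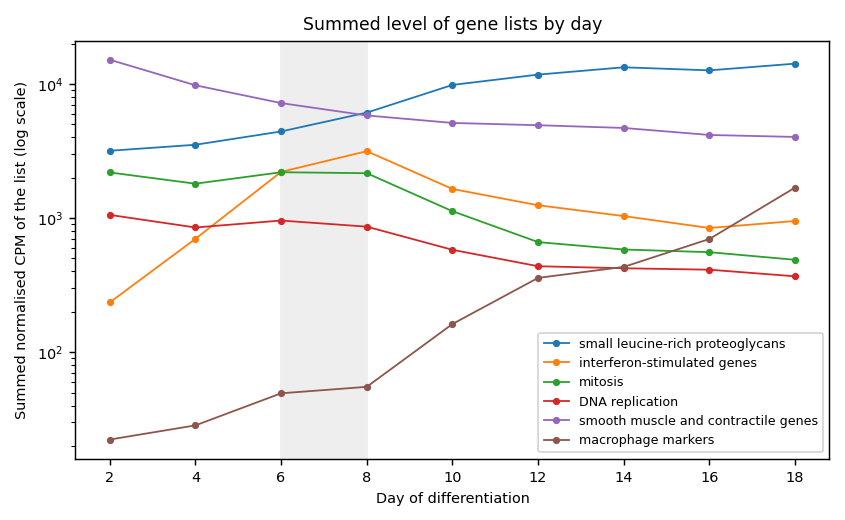
The summed normalised CPM of 6 gene lists (vertical axis, log scale) is plotted on each of the 9 days (horizontal axis), 1 library a day, with days 6 to 8 shaded. Interferon-stimulated genes are highest on day 8, at 3156, and the mitosis list is at 2162 on day 8 and 1126 on day 10.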

How the data were processed

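RNA was amplified to cDNA with the NuGEN Ovation kit and libraries were made by the TruSeq method. Per the labels, the authors used Bowtie 0.12.9, RSEM 1.2.8 and NCBIM37. The authors deposited estimated counts per gene (RSEM expected counts, not normalised), in which a read that matches several genes is divided between them. The authors also deposited TPM, the RSEM abundance scaled by effective length. Symbols and positions came from the GENCODE annotation of NCBIM37 (37205 of 37991 identifiers matched) and promoter windows from RefSeq (GRCm38.p6).

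Counts of the 3 profiles of a day were summed, scaled by upper-quartile factors of edgeR 4.0.16 (R 4.3.3; 1.07 on day 6, 1.054 on day 8) and compared as log2 ratios with a pseudocount of 0.5 counts. Genes with 30 or more counts over the 6 profiles were kept, and a gene was called at 2-fold. The exact 95% interval of a ratio (scipy 1.17.1, Clopper-Pearson) covers counting error only, since each day is 1 library. Counts were rounded and treated as independent. Amplified reads are not independent molecules, and 4107 of the genes compared had counts that are not whole numbers, so the interval can be too narrow. Mitochondrial ribosomal RNA took 21.8% of day 6 and 23.0% of day 8 counts. The ratio and interval were also run on simulated counts with sampling noise only. That run checks the arithmetic and leaves out amplification and differences between cultures. Alternatives were other scalings, filters, pseudocounts, TPM, thinning, profiles left out and a replicate block.

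The genes named were the 15 largest and 15 smallest ratios among protein-coding genes with a mean of at least 5 TPM, up to 4 members of each list with the largest ratio and at least 1 TPM, and 10 fixed genes. One gene that this rule names is not reported here. Other list members were named after their values were seen, mostly as members past 2-fold or as the best known of a group. The members, the 42 lists and the tests were chosen with earlier results of these data known. Motifs were planned for the list with the largest share past 2-fold, which had 4 genes compared, and were counted over all genes past 2-fold instead. Same-numbered profiles did not deviate together (r = −0.0128, 0.00266 and 0.0726).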

Additional observations from a re-analysis of the deposited data

How the results depend on the processing

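With 1 library per day no alternative replaces a biological replicate. The 562 higher and 310 lower genes became 534 and 333 with TMM factors, 560 and 310 with DESeq2 size factors, 536 and 327 with total counts and 531 and 255 after thinning day 6 to day 8. With a filter of 1 count they were 2654 and 2443, and the shares with the same order on the other days were 30.6% and 13.0%. With a filter of 300 counts they were 173 and 61, with shares of 97.1% and 85.2%. The counts and shares thus differed with the filter, and the shares over all genes at these filters were not counted. The share of higher genes was 73.5% in TPM and 82.5% among genes with whole-number counts, and that of lower genes was 55.3% among those genes and 56.0% with a pseudocount of 5. Leaving out 1 profile gave 500 to 545 higher genes, 250 to 339 lower genes and shares of 77.2% to 80.1% and 46.6% to 52.3%. With the replicate block, in which ratios are taken within each replicate number, there were 570 higher and 327 lower genes and shares of 77.2% and 45.0%.

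The sign of the median changed under some alternative for 11 of the 41 lists with genes compared, most often for inflammatory mediators and glucocorticoid targets, whose medians were near 0. With 300 or more counts the median went from 0.81 to −0.24 for adipocyte genes and from 0.25 to −0.03 for osteoblast matrix and mineralisation. Among 190 single genes 4 changed sign, none of them past 2-fold. Of 80 named genes past 2-fold, these did not stay past it in every alternative: Col11a1 (0.96), Egr2 (0.86), Iigp1 (0.98), Ndrg1 (0.71) and Tek (0.84) in TPM, Fcer1g (−0.91) with a pseudocount of 5, Pparg (0.98) without replicate 2 of day 6, and Gemin4 (−0.88) and Dusp14 (−0.98) without replicate 2 of day 8, all as log2 ratios. The cause was not tested.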
